A study of Arabidopsis thaliana with 9 samples.

Results

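The 4 *KISS ME DEADLY* (*KMD*) genes of Arabidopsis, *KMD1* (AT1G80440), *KMD2* (AT1G15670), *KMD3* (AT2G44130), and *KMD4* (AT3G59940), were followed through 9 RNA-seq libraries of ascorbate-deficient mutants and the wild type. They were taken by their locus identifiers from a table of 28642 genes, and all 4 were in it. The family was chosen because *KMD1* stood high in *vtc2-4*, so the comparison of *vtc2-4* with the wild type is a description of its members and not a test of them. The 3 libraries of each genotype came from shoots of T-DNA insertion mutants *vtc2-4* and *vtc3-3* and of the wild type Col-0. *VTC2* encodes GDP-L-galactose phosphorylase, which controls ascorbate synthesis, and *VTC3* encodes a protein with kinase and phosphatase domains that is also needed for normal ascorbate levels. All seedlings were 2 weeks old, had grown on MS medium with 1% sucrose and days of 16 h of light, and were kept dark for 48 h before light at 100 µmol photons per square metre and second was given for 6 h. Each mutant was 1 T-DNA allele, whose background is not stated in the sources used here. The triplicates are taken as separate samples without further detail in the labels.

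KMD proteins carry an F-box, which binds the SKP1-like subunit of an SCF ubiquitin ligase, and Kelch repeats, which bind the proteins to be degraded. Their known targets are type-B response regulators, the transcription factors that turn on genes in response to cytokinin, and phenylalanine ammonia-lyases, which open the phenylpropanoid pathway. The family thus restrains both cytokinin signalling and phenylpropanoid synthesis by protein turnover, a step that transcript counts do not see. In RefSeq the same genes also have names as Kelch repeat F-box (KFB) genes.

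The deposited positions (genome build not named) place *KMD1* at chr1:30241607-30243071, *KMD2* at chr1:5389952-5391490, *KMD3* at chr2:18253610-18255054, and *KMD4* at chr3:22142900-22144439. Each is a gene of a single exon, of 1465, 1539, 1445, and 1540 bases in that order. In the RefSeq annotation of TAIR10.1, all 4 are on the plus strand, with coding lengths of 1065 bases in *KMD1*, 1080 in *KMD2*, 1230 in *KMD3*, and 1257 in *KMD4*. Aligned over their coding sequences, they formed 2 pairs. *KMD1* and *KMD2* shared 75.1% of aligned bases and *KMD3* and *KMD4* 72.4%, whereas the 4 pairings across these pairs shared 53.0% to 55.9%. The first 60 coding bases are shown from the start codon, with capitals where a base equals the aligned base of the closest family member.
KMD1: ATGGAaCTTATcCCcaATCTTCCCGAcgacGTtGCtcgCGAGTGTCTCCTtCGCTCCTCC
KMD2: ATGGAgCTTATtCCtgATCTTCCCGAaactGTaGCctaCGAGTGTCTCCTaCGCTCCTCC
KMD3: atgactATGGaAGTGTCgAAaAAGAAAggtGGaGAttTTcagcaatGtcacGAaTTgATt
KMD4: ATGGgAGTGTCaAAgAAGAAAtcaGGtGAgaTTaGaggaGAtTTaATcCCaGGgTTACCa
In this stretch 47 of 60 bases of *KMD1* equalled those of *KMD2*. Of the first 60 bases of *KMD3*, 31 equalled those of *KMD4*, and of the first 60 of *KMD4*, 40 equalled those of *KMD3*. The longest run of identical bases was 17 between *KMD1* and *KMD2* and 26 between *KMD3* and *KMD4*. In every library, the uniquely mapped reads of each of the 4 genes equalled its total reads, so none of its reads was shared with another place in the genome.

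The 250 bases before the annotated transcript start are shown for *KMD1* and *KMD4*, the members with most reads, which both stood higher in *vtc2-4*. They were read from TAIR10.1, plus strand, at chr1:30241202-30241451 for *KMD1* and chr3:22142650-22142899 for *KMD4*. The *KMD1* transcript starts at 30241452 in TAIR10.1, whereas the deposited gene starts at 30241607. The TAIR10.1 gene of *KMD4* starts at 22142856, inside its window, although the transcript used starts at 22142900. Distances from the start therefore depend on the start taken. Capitals mark matches to the letters searched.
KMD1: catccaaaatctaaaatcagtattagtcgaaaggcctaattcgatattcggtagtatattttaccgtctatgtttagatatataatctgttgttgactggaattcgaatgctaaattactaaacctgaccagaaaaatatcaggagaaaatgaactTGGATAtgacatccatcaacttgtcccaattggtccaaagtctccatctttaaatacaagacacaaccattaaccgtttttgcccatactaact
KMD4: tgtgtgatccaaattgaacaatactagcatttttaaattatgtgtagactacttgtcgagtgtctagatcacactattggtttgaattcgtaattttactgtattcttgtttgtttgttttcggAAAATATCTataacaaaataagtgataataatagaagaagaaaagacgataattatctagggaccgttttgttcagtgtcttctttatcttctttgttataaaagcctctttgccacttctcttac
The letters searched on both strands were CACGTG (G-box), ACTCAT (an element bound by S1 bZIP factors), TTATCC (sugar-repressive element), TATCCA (a sugar-response element), GATAAG (I-box), and AAAATATCT (evening element). TTATCC and TATCCA share letters within TTATCCA, and the complement of TTATCC shares letters with GATAAG. *KMD1* held 1 match, the reverse complement of TATCCA at 94 to 89 bases before the start, and 13.6% of 27443 promoters of the same length held that element. *KMD4* held 1 evening element at 126 to 118 bases before the start, against 2.36% of all promoters. *KMD3* held 1 ACTCAT at 52 to 47 bases before its start, against 12.3% of all promoters, and *KMD2* held none of the 6. The G-box was in 6.49%, TTATCC in 12.5%, and GATAAG in 12.3% of all promoters. *KMD1* and *KMD4* thus had none of the searched elements in common in these windows.

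The libraries held from 4399733 to 7567492 gene reads. *VTC2* averaged 6.49 CPM (counts scaled by TMM-normalized library sizes) in *vtc2-4* and 687 in the wild type, and *VTC3* averaged 3.65 in *vtc3-3* and 17.1 in the wild type, so the targeted gene was low in each mutant. Wild-type replicate 1 stood apart, with a mean correlation of 0.908 with the other libraries against 0.971 to 0.975 for the rest. The 6 green tissue markers summed to 21563 to 23181 RPKM (exon reads relative to exon length and library size) in *vtc2-4*, 21160 to 22700 in *vtc3-3*, and 11345 to 21369 in the wild type. The lowest of these sums was in wild-type replicate 1. Of 8 root markers, 5 were at 0 in *vtc2-4*, 4 in *vtc3-3*, and 5 in the wild type, and their sums ranged from 63.7 to 81.9, from 71.4 to 86.3, and from 63.4 to 66.6 RPKM in the same order. Fold changes of the members and of the named list genes against the wild type are given with all 9 libraries and also without wild-type replicate 1.

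Among the members with reads, *KMD4* had the highest transcript level in every library, followed by *KMD1* and *KMD2*, and *KMD3* was listed at 0 throughout. *KMD4* averaged 94.6 ± 8.24 RPKM in *vtc2-4*, 48.3 ± 9.26 in *vtc3-3*, and 25.6 ± 4.15 in the wild type (SD, n = 3 each). *KMD1* averaged 31.8 ± 6.59 RPKM in *vtc2-4*, 7.68 ± 2.53 in *vtc3-3*, and 3.98 ± 1.46 in the wild type. *KMD2* averaged 1.97 ± 1.07 RPKM in *vtc2-4*, 1.49 ± 0.285 in *vtc3-3*, and 0.901 ± 0.350 in the wild type. Within a genotype, the ranges of neighbouring members in this order did not overlap. Among the 27328 genes with an exon length, *KMD4* lay between the 94.5th and 95.5th percentile of RPKM in *vtc2-4*, the 87.8th and 91.8th in *vtc3-3*, and the 78.7th and 82.5th in the wild type. *KMD1* lay between the 80.3rd and 86.8th percentile in *vtc2-4*, the 53.8th and 63.9th in *vtc3-3*, and the 42.7th and 52.7th in the wild type.

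**Figure D1:**
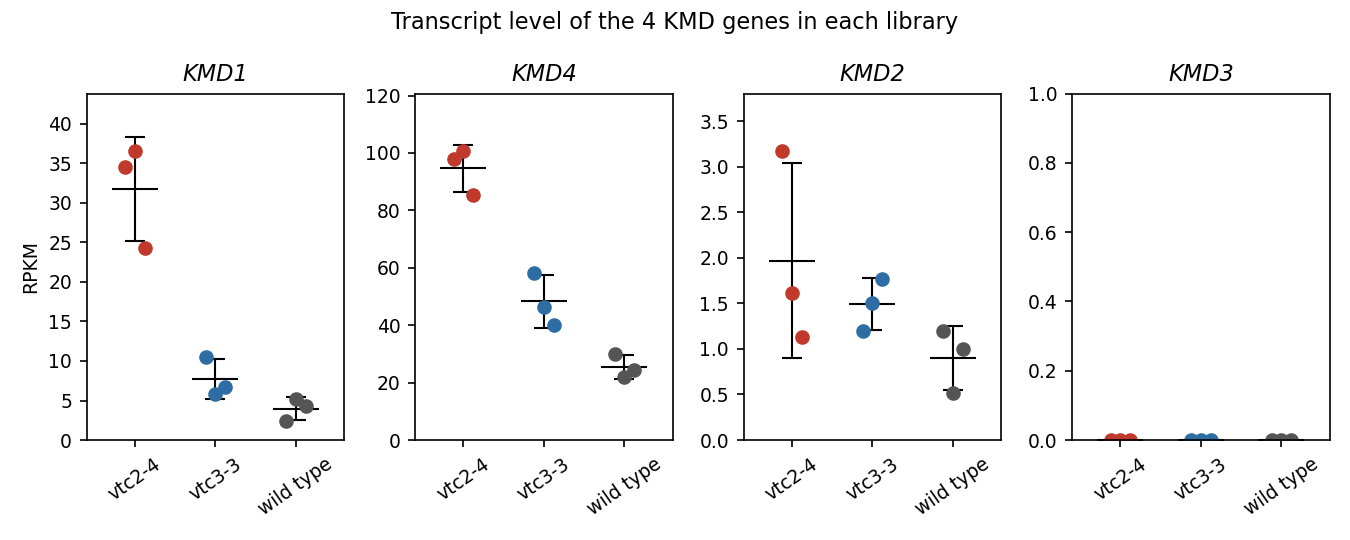
RPKM of *KMD1*, *KMD4*, *KMD2*, and *KMD3* in each library of *vtc2-4*, *vtc3-3*, and the wild type (points), with the mean and SD (black, n = 3). Each panel has its own axis from 0. The 3 genotypes separate fully for *KMD1* and *KMD4*, the *vtc2-4* and wild-type points of *KMD2* overlap, and *KMD3* is at 0 in all 9 libraries.

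*KMD3* had no read in any of the 9 libraries, and a floor of 3 reads corresponds to 0.274 to 0.472 RPKM, depending on the library. Its interval lies wholly inside AT2G44140 on the other strand, with 1445 of its 1445 bases overlapping in the deposited positions. AT2G44140 had 125 to 281 reads per library. No source says whether strand entered the counting, and the library kit does not mark strand, so reads of *KMD3* cannot be told apart here from reads of AT2G44140. Of the 431 genes that lie wholly inside another gene in the table, 49.65% had no read in any library, against 20.44% of the 28211 other genes. *KMD4* overlaps AT3G59950 on the other strand by only 160 bases. AT3G59950 had 132 to 251 reads and log2 fold changes of -0.16 in *vtc2-4* and -0.26 in *vtc3-3* against the wild type, with edgeR adjusted p = 0.60 and 0.63. A long non-coding RNA of TAIR10.1, AT3G09275, overlaps *KMD4* by 1389 bases on the other strand and was not analysed here. As the kit does not mark strand, reads from this overlap cannot be assigned to *KMD4* alone. The *KMD4* values given here may therefore include reads of AT3G09275.

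*KMD1* was the member furthest from the wild type in *vtc2-4*. It had 342, 388, and 246 reads in the *vtc2-4* libraries and 19, 39, and 37 in the wild type. These were 34.5, 36.5, and 24.2 RPKM in *vtc2-4* and 2.38, 5.25, and 4.31 RPKM in the wild type. The lowest *vtc2-4* library was above the highest wild-type library. The fitted log2 fold change was 3.00 (SE 0.31), or 8.03-fold, and was 2.74 (SE 0.23) without wild-type replicate 1, where *KMD1* had 0.483 times the mean CPM of the other two wild-type libraries. More cells with *KMD1* transcripts and more transcripts per cell cannot be told apart in whole shoots.

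*KMD4*, the member with most reads, was also higher in *vtc2-4*. It had 98.0, 100.6, and 85.2 RPKM in *vtc2-4* and 30.1, 22.0, and 24.5 RPKM in the wild type, from 909 to 1123 and from 172 to 253 reads. The genotypes did not overlap, and *KMD4* varied least of the members among the *vtc2-4* libraries, with a highest CPM 1.20 times the lowest. Its fitted log2 fold change was 1.90 (SE 0.17), or 3.73-fold, and 2.02 (SE 0.12) without wild-type replicate 1. *KMD2*, the closest relative of *KMD1*, had 3.17, 1.61, and 1.13 RPKM in *vtc2-4* and 1.19, 0.513, and 0.999 RPKM in the wild type, from 12 to 33 and from 4 to 10 reads. Its genotypes overlapped, and replicate 1 of *vtc2-4* stood above the other two. Its log2 fold change was 1.11 (SE 0.46), and 1.33 (SE 0.50) without wild-type replicate 1. Of the 3 members with enough reads to be fitted, 2 (*KMD1* and *KMD4*) were among the genes past an adjusted p of 0.05 in edgeR's quasi-likelihood test and higher in *vtc2-4*, as were 0.426% of the 17388 genes tested. The libraries of 8.43% of the genes tested were higher in *vtc2-4* without overlap, as were those of *KMD1* and *KMD4*. As the family was chosen from this contrast, nothing is read from these counts.

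The *vtc3-3* mutant was not used to choose the family and gives its only test, although it shares the wild-type libraries with the comparison above. A gene chosen as high against these libraries tends to be low in them, which also raises its fold change in *vtc3-3*. The choice was also made with earlier results of these data known. *KMD4* had 58.3, 46.3, and 40.1 RPKM in *vtc3-3* and 30.1, 22.0, and 24.5 RPKM in the wild type. Every *vtc3-3* library was above every wild-type library. The log2 fold change was 0.92 (SE 0.17, 95% confidence interval 0.55 to 1.296), or 1.89-fold, and did not pass edgeR's quasi-likelihood test after adjustment over all genes (adjusted p = 0.40). Without wild-type replicate 1 the log2 fold change was 1.06 (SE 0.13, 95% confidence interval 0.78 to 1.34), and it passed (edgeR, adjusted p = 0.000357). DESeq2 on all 9 libraries gave 0.92 with an adjusted p of 0.00183. Over the alternatives run, the adjusted p of *KMD4* ranged from 0.000357 to 0.845 and its log2 fold change from 0.77 to 1.06.

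*KMD1* had 10.6, 5.81, and 6.67 RPKM in *vtc3-3* and 2.38, 5.25, and 4.31 RPKM in the wild type, from 117, 44, and 43 and from 19, 39, and 37 reads. The genotypes did not overlap, but the gap between the lowest *vtc3-3* and the highest wild-type library was small. Replicate 1 of *vtc3-3*, the deepest library, had 1.66 times the mean CPM of the other two for *KMD1*. The log2 fold change was 0.97 (SE 0.33, 95% confidence interval 0.23 to 1.71, edgeR adjusted p = 0.63), and 0.74 (SE 0.28, adjusted p = 0.40) without wild-type replicate 1. *KMD2* had 1.20, 1.51, and 1.77 RPKM in *vtc3-3*, from 12 to 14 reads, and 1.19, 0.513, and 0.999 RPKM in the wild type. Its lowest *vtc3-3* value and highest wild-type value nearly coincided. The log2 fold change was 0.68 (SE 0.49, 95% confidence interval -0.40 to 1.77, edgeR adjusted p = 0.63), and 0.89 (SE 0.54, adjusted p = 0.69) without wild-type replicate 1. With all 9 libraries, neither no change nor a rise as large as that of *KMD4* lay outside the interval.

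Of the 3 fitted members, 0 passed edgeR's adjusted threshold in *vtc3-3*, against 0.023% of all genes tested (4 of 17388), and 2 (*KMD1* and *KMD4*) had an unadjusted p under 0.05, as did 6.23% of all genes tested. Without wild-type replicate 1, edgeR called 1 member, *KMD4*, and 0.681% of all genes. DESeq2 also called 1 member, *KMD4*, and 0.0917% of its genes. In all 3 fitted members the *vtc3-3* libraries lay above the wild-type libraries with no overlap in normalized CPM, a pattern that 6.17% of the genes tested had. Their median log2 fold change was 0.92, and that of all genes tested was -0.003.

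Set directly against *vtc2-4*, the *vtc3-3* libraries held an intermediate place for *KMD1* and *KMD4*. *KMD1* had 10.6, 5.81, and 6.67 RPKM in *vtc3-3* and 34.5, 36.5, and 24.2 RPKM in *vtc2-4*, a log2 difference of -2.04 (SE 0.29). *KMD4* had 58.3, 46.3, and 40.1 RPKM in *vtc3-3* and 98.0, 100.6, and 85.2 RPKM in *vtc2-4*, a log2 difference of -0.98 (SE 0.16). Neither gene overlapped between the mutants, and 12.2% of the genes tested were likewise lower in *vtc3-3* without overlap. *KMD2* overlapped, with a log2 difference of -0.43 (SE 0.42) that turned to 0.08 without *vtc2-4* replicate 1. *KMD1* and *KMD4* were among the genes past the adjusted threshold and lower in *vtc3-3*, as were 0.282% of all genes tested, which is again a description, since the *vtc2-4* libraries chose the family. The order of the genotypes was thus *vtc2-4*, *vtc3-3*, and the wild type for *KMD1* and *KMD4*, with no overlap between neighbours, whereas for *KMD2* the neighbouring mutants did not differ beyond their spread. The share of all genes with the order of *KMD1* and *KMD4* was not counted.

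**Figure D2:**
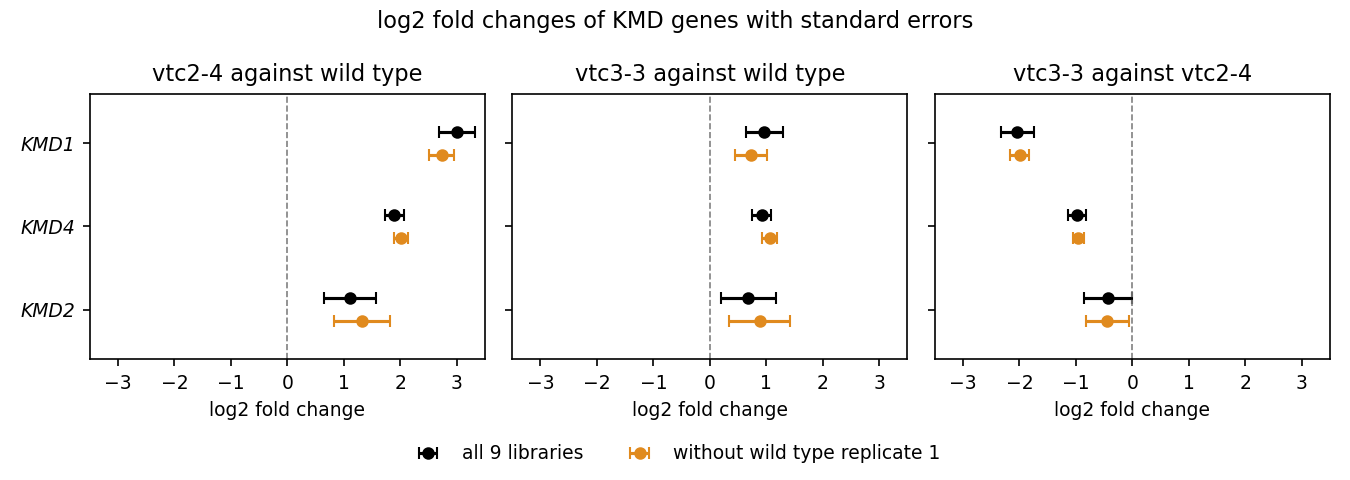
Fitted log2 fold changes (x axis) of *KMD1*, *KMD4*, and *KMD2* in the 3 comparisons, with all 9 libraries (black) and without wild-type replicate 1 (orange). Bars are standard errors of the edgeR fit. Against the wild type, *KMD1* is at 3.00 in *vtc2-4* and 0.97 in *vtc3-3*, and *KMD4* at 1.90 and 0.92.

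*KMD1* also took a larger part of the family's summed RPKM in *vtc2-4*, which is a description only, since *KMD1* was chosen for its level there. The summed RPKM of the family was 136, 139, and 111 in *vtc2-4*, 70.1, 53.6, and 48.6 in *vtc3-3*, and 33.7, 27.8, and 29.8 in the wild type. *KMD1* made up 25.4%, 26.3%, and 21.9% of it in *vtc2-4*, 15.1%, 10.8%, and 13.7% in *vtc3-3*, and 7.06%, 18.9%, and 14.5% in the wild type. The *vtc2-4* shares lay above all others, whereas the *vtc3-3* shares fell within the wild-type range. *KMD4* made up 72.2% to 77.1% in *vtc2-4*, 82.6% to 86.4% in *vtc3-3*, and 79.3% to 89.4% in the wild type. It was thus the main transcript among the members with reads in all 9 libraries. These shares take *KMD3* at its listed 0, although its reads cannot be told apart from those of AT2G44140. *KMD4* exceeded *KMD1* 2.75- to 3.52-fold in *vtc2-4*, 5.53- to 7.98-fold in *vtc3-3*, and 4.20- to 12.7-fold in the wild type. The low *KMD1* share of 7.06% and the ratio of 12.7 both came from wild-type replicate 1. *KMD2* was at most 3.65% of the sum in any library. The 2 members with most reads were thus 1 from each sequence pair, and the partner of each was low (*KMD2*) or listed at 0 (*KMD3*).

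**Figure D3:**
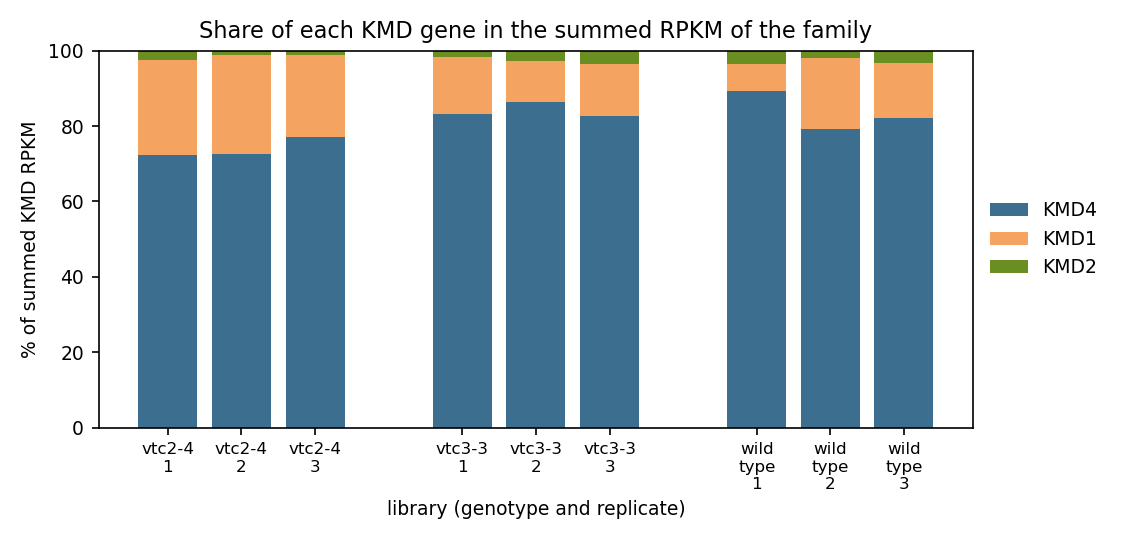
Share (%) of *KMD4*, *KMD1*, and *KMD2* in the summed RPKM of the family, per library of *vtc2-4*, *vtc3-3*, and the wild type. *KMD3* adds 0. *KMD1* takes 21.9% to 26.3% in *vtc2-4* and at most 18.9% elsewhere.

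The targets of the KMD proteins were next examined at the transcript level. Of 11 type-B response regulators, 4 had no read and 6 were fitted, and none of the 6 passed edgeR's adjusted test in either mutant, had an unadjusted p under 0.05, or was called by DESeq2. Their median log2 fold change was 0.09 in *vtc2-4* and 0.09 in *vtc3-3*, against -0.01 and -0.003 over all genes. *ARR14* had the lowest values, -0.42 in *vtc2-4* and -0.43 in *vtc3-3*, and *ARR11* the highest, 0.26 and 0.30. Without wild-type replicate 1 *ARR14* turned to 0.09 and 0.05, *ARR11* had 0.38 and 0.42, and the medians were 0.01 in both mutants. *ARR1*, *ARR10*, and *ARR12*, whose proteins carry most of the cytokinin response, had -0.05, 0.04, and 0.21 in *vtc2-4*, and -0.12, -0.01, and 0.03 without that library. All 4 phenylalanine ammonia-lyase genes were fitted, and none passed the test in either mutant by edgeR or DESeq2. *PAL3* had the highest value in *vtc2-4* (0.64, and 0.40 without wild-type replicate 1) and *PAL1* the lowest (-0.13 and -0.20). Only *PAL3* had an unadjusted p under 0.05 in edgeR, as did 9.90% of all genes tested in *vtc2-4*. In *vtc3-3* they ranged from 0.22 (*PAL1*) to 0.33 (*PAL4*), with none under an unadjusted p of 0.05, and *PAL1* had 0.15 and *PAL4* 0.14 without wild-type replicate 1. *PAL1* alone was called between the mutants, higher in *vtc3-3* than in *vtc2-4* (log2 difference 0.36), and only without wild-type replicate 1 (edgeR, adjusted p = 0.00574), where 6.76% of all genes were called.

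Among the subunits that carry KMD proteins in the SCF ligase, no gene passed the test. Of 5 genes, *RBX1B* had no read and 4 were fitted, with 0 called by edgeR or DESeq2 and 0 under an unadjusted p of 0.05 in either mutant. *ASK1*, an SKP1-like adaptor, had the lowest log2 fold change (-0.30 in *vtc2-4* and -0.35 in *vtc3-3*) and *CUL1*, the scaffold, the highest (0.09 and 0.16). These values rested on wild-type replicate 1, without which *ASK1* had 0.08 and 0.03 and *CUL1* -0.06 and 0.01. Upstream of the type-B regulators, 7 of 9 genes of cytokinin receptors and phosphotransfer proteins were fitted, with 0 called by either tool and 0 under an unadjusted p of 0.05. Their extremes were *AHP1* (-0.68) and *AHK3* (0.09) in *vtc2-4*, and *AHP3* (-0.64) and *AHK3* (0.08) in *vtc3-3*. Without wild-type replicate 1 *AHP1* had -0.16 and *AHK3* -0.05 in *vtc2-4*, and *AHP3* had 0.04 and *AHK3* -0.06 in *vtc3-3*. Of 7 cytokinin oxidases, which break cytokinins down, 5 were fitted, with 0 called by either tool and 0 under an unadjusted p of 0.05. *CKX4* (-0.20 in *vtc2-4*, -0.59 in *vtc3-3*) was lowest in both mutants, and *CKX5* (0.59) in *vtc2-4* and *CKX6* (0.30) in *vtc3-3* were highest. Without wild-type replicate 1 *CKX4* turned to 0.22 in *vtc2-4* and had -0.17 in *vtc3-3*, *CKX5* had 0.58 in *vtc2-4*, and *CKX6* had 0.07 in *vtc3-3*.

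The type-A response regulators, which cytokinin induces through the type-B factors and which in turn damp the signal, had negative fold changes in both mutants when all 9 libraries were used. Of 10 genes, *ARR3* and *ARR17* had no read and 8 were fitted, with median log2 fold changes of -0.68 in *vtc2-4* and -0.70 in *vtc3-3*. None passed edgeR's adjusted threshold. In *vtc2-4* 3 and in *vtc3-3* 5 of the 8 had an unadjusted p under 0.05, against 9.90% and 6.23% of all genes tested. DESeq2 called 2 in *vtc2-4*, both lower, and 0 in *vtc3-3*, against 1.47% and 0.0917% of its genes. *ARR7* was lowest in *vtc2-4* (-1.28, SE 0.34) and *ARR16* in *vtc3-3* (-1.07, SE 0.41), and *ARR4* (-0.27 in *vtc2-4*) and *ARR8* (-0.35 in *vtc3-3*) were highest. These values leaned on wild-type replicate 1, without which the medians were -0.15 and -0.19 and *ARR8* (0.02 and 0.29) and *ARR9* (0.03 and 0.11) lay above 0 in *vtc2-4* and *vtc3-3*. Without it *ARR16* had -0.46 in *vtc3-3* and *ARR4* -0.13 in *vtc2-4*. *ARR7* had 25.4, 22.0, and 25.8 CPM in *vtc2-4*, 34.2, 34.4, and 34.7 in *vtc3-3*, and 101, 35.8, and 40.7 in the wild type. Without that library edgeR called 6.05% of all genes in *vtc2-4* and 6.76% between the mutants. Of the 8 regulators, 2 were called lower in *vtc2-4*, as edgeR gave *ARR6* -0.66 (adjusted p = 0.00449) and *ARR7* -0.65 (adjusted p = 0.000408), and *ARR7* was higher in *vtc3-3* than in *vtc2-4* by 0.50 (adjusted p = 0.00227).

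**Figure D4:**
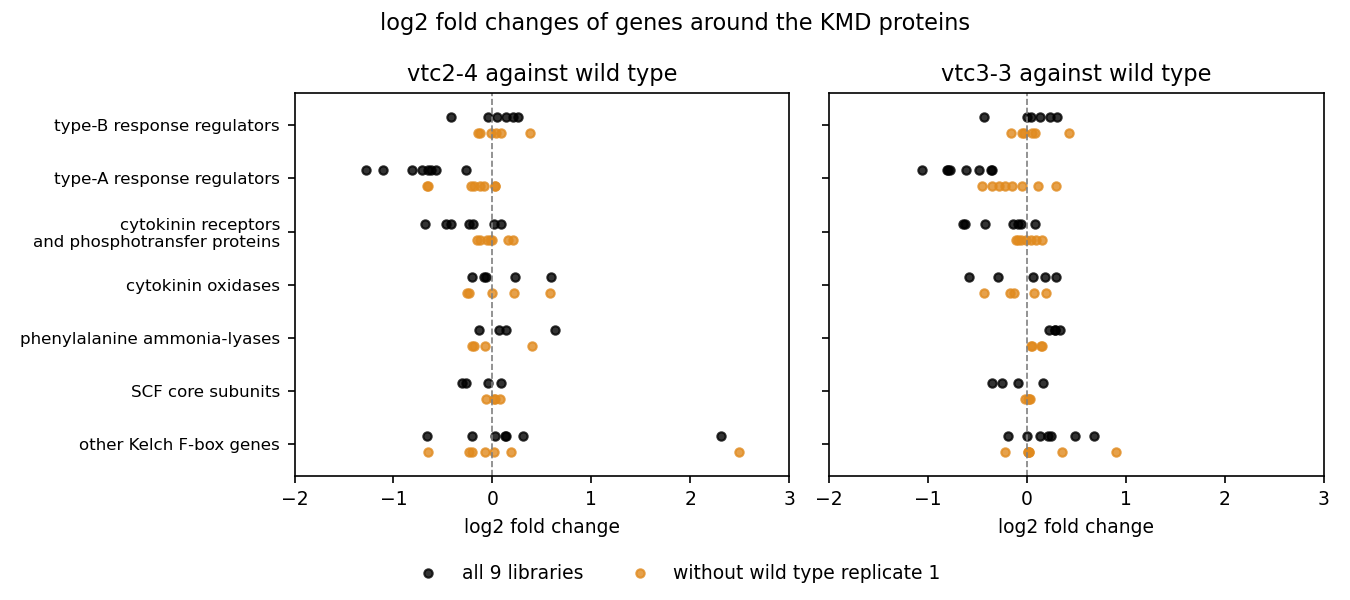
log2 fold changes (x axis) of the fitted genes of 7 lists in *vtc2-4* (left) and *vtc3-3* (right) against the wild type, with all 9 libraries (black) and without wild-type replicate 1 (orange). The type-A response regulators are all below 0 in black and centre nearer 0 in orange, and the point at 2.31 in *vtc2-4* is *KFB-CHS*.

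Among other Kelch F-box genes, *KFB-CHS* (AT1G23390), whose protein directs the degradation of chalcone synthase, differed most. It had 130, 130, and 89.2 CPM in *vtc2-4*, 45.3, 34.8, and 32.2 in *vtc3-3*, and 29.1, 20.7, and 20.5 in the wild type. The 3 genotypes did not overlap and stood in the same order as for *KMD1*. *KFB-CHS* rose in *vtc2-4* by a log2 fold change of 2.31 (SE 0.22, edgeR adjusted p = 0.00158; 2.50 without wild-type replicate 1) and was lower in *vtc3-3* than in *vtc2-4* by a log2 difference of -1.63 (SE 0.21, edgeR adjusted p = 0.0133). In *vtc3-3* against the wild type its log2 fold change of 0.68 (SE 0.22, edgeR adjusted p = 0.63) did not pass, but 0.90 without wild-type replicate 1 did (adjusted p = 0.0357), as did 0.681% of all genes. Of the 7 listed Kelch F-box genes outside the family, edgeR called 1 in *vtc2-4*, where 0.598% of all genes were called, and 0 in *vtc3-3*, where 2 of the 7 and 6.23% of all genes had an unadjusted p under 0.05 and DESeq2 called 0. *AFR*, an F-box protein of phytochrome A signalling, was the lowest of the 7 in *vtc2-4* (-0.66), and it passed only without wild-type replicate 1 (edgeR, -0.65, adjusted p = 0.0253), where 6.05% of all genes passed. Without that library *AFR* was also higher in *vtc3-3* than in *vtc2-4*, by 0.67 (edgeR, adjusted p = 0.00788), where 6.76% of all genes were called. Among the 7 listed genes in *vtc3-3*, *HWS*, an F-box gene of organ growth, had the lowest value (-0.19, and -0.22 without wild-type replicate 1) and *KFB-CHS* the highest. Of all 97 other genes that RefSeq describes as Kelch repeat F-box genes, 40 were fitted, with log2 fold changes from -0.34 to 0.79 in *vtc3-3* against the wild type. With all 9 libraries edgeR called 0 of the 40 in that comparison, against 0.023% of all genes tested. It called only *KFB-CHS* in *vtc2-4* against the wild type, where 0.598% of all genes were called. In *vtc3-3* against *vtc2-4* it also called only *KFB-CHS*, where 61 of 17388 genes tested were called.

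The seedlings had come out of prolonged darkness, and 8 genes that darkness and sugar starvation induce were set beside the family. Their median log2 fold change was 0.39 in *vtc2-4* and 0.24 in *vtc3-3*, against -0.01 and -0.003 over all genes. Without wild-type replicate 1 the medians were 0.39 and 0.30. In *vtc2-4* 4 of the 8 had an unadjusted p under 0.05 in edgeR, against 9.90% of all genes tested. This count takes both directions and holds *DIN1*, which was lower in *vtc2-4* (-1.06). *DIN10*, which encodes a raffinose synthase family protein, was the 1 gene of the 8 that edgeR called in *vtc2-4*, where 0.598% of all genes were called. It had 42.9, 32.7, and 24.2 CPM in *vtc2-4* and 6.47, 14.7, and 9.84 in the wild type, with no overlap, a pattern that 8.43% of the genes tested had. *DIN10* rose by a log2 fold change of 1.69 (SE 0.29, edgeR adjusted p = 0.0328), and by 1.45 without wild-type replicate 1. In *vtc3-3* it had 15.3, 13.6, and 15.1 CPM and a log2 fold change of 0.51, and 0.28 without wild-type replicate 1. *DIN1*, a senescence-associated gene, was lowest in *vtc2-4* (-1.06, edgeR adjusted p = 0.38) and *MCCA*, a subunit of methylcrotonyl-CoA carboxylase, in *vtc3-3* (-0.42, edgeR adjusted p = 0.64), and without wild-type replicate 1 these were -0.57 and -0.63. *DIN2*, a beta-glucosidase gene, had the highest fitted values, but from 98, 0, and 0 reads in *vtc2-4*, 56, 96, and 2 in *vtc3-3*, and 2, 0, and 0 in the wild type, so its libraries of 1 genotype differed from 0 to 98 reads and no fold is given. In *vtc3-3* 0 of the 8 passed in edgeR or DESeq2 and 2 had an unadjusted p under 0.05 (6.23% of all genes). When wild-type replicate 1 was left out, edgeR called 0.681% of all genes and, of these 8, *GDH2*, a glutamate dehydrogenase (0.81, adjusted p = 0.042). Between the mutants edgeR called 0 of the 8, against 61 of all 17388 genes tested, and 3 had an unadjusted p under 0.05 (5.10% of all genes). DESeq2 called 1 of the 8, lower in *vtc3-3*, and 0.662% of its genes. Without that library, where 6.76% of all genes were called, edgeR called *DIN10* lower (-1.17, adjusted p = 0.000164) and *DIN1* higher (0.76, adjusted p = 0.0162) in *vtc3-3*.

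The genes with the profile most like that of *KMD1* over the 9 libraries were found by the root mean square (RMS) difference of log2 CPM centred on each gene's mean, among 15873 genes with a mean of at least 20 reads. The nearest was AT5G19120 (RMS 0.228), followed by *ERF104* (0.401), an ethylene response factor, *ATCTH* (0.418), a zinc finger protein, AT2G20670 (0.450), and AT2G25200 (0.466), against a median RMS of 1.31. AT5G19120 had 51.6, 45.0, and 37.3 CPM in *vtc2-4*, 17.6, 9.73, and 12.3 in *vtc3-3*, and 3.06, 6.56, and 4.83 in the wild type, where *KMD1* had 50.8, 54.4, and 35.5, then 15.3, 8.56, and 9.82, and 3.42, 7.75, and 6.38. Both genes were lowest in wild-type replicate 1 and, among the *vtc3-3* libraries, highest in replicate 1. *KMD4* ranked 29th (RMS 0.644), so that 28 genes outside the family were nearer to *KMD1* than *KMD4* was. *KMD2* was below the minimum of 20 reads and was not ranked. The RMS also grows where genes change in the same direction by different amounts. Without wild-type replicate 1, *KMD4* ranked 45th and 2 of these 5 genes stayed among the 5 nearest. As *KMD1* was chosen for its pattern, these ranks are a description only.

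**Figure D5:**
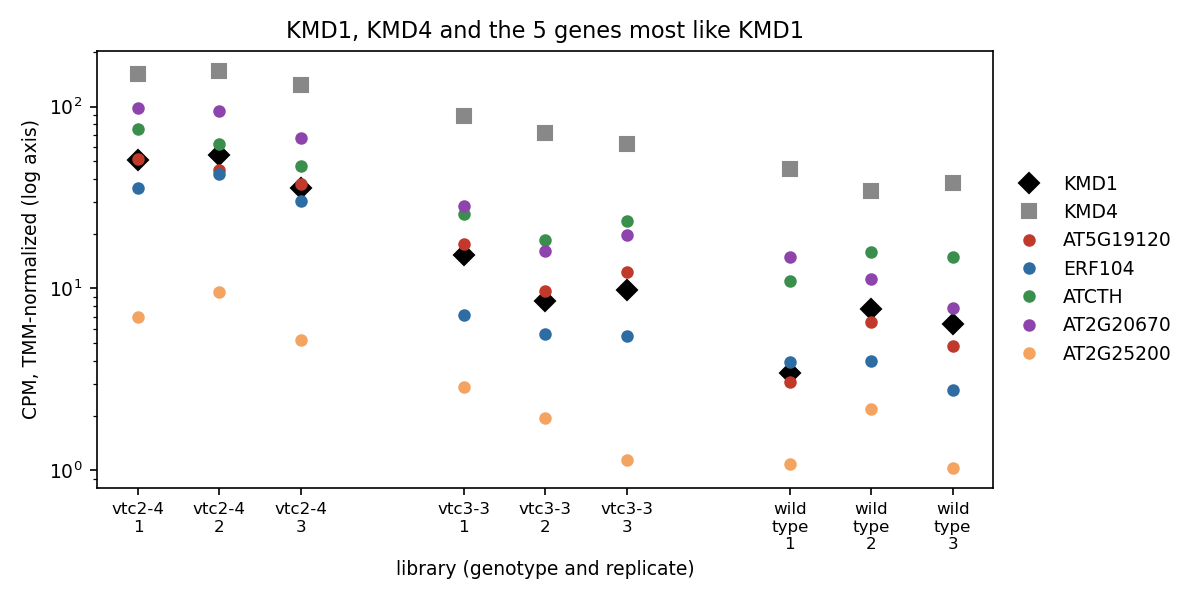
Normalized CPM (log axis) of *KMD1* (diamonds), *KMD4* (squares), and the 5 genes most like *KMD1* (circles) in each library of *vtc2-4*, *vtc3-3*, and the wild type. All 7 are highest in the *vtc2-4* libraries, and AT5G19120 lies closest to *KMD1*, with 51.6 and 50.8 CPM in *vtc2-4* replicate 1.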

How the data were processed

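RNA-seq reads of shoots from *vtc2-4*, *vtc3-3*, and the wild type (3 libraries each) were mapped and counted per gene by the authors in CLC Genomics Workbench. The genome build, the annotation, and whether strand was used are not given in the sources used here. The deposited counts are raw whole numbers of reads per gene, and the RPKM values, also deposited by the authors, relate exon reads to exon length and library size, which was checked. Of the 171 per-library columns 130 were not used, and the authors' columns of fold changes and p-values were not read.

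After TMM normalization, total gene reads were tested in edgeR 4.0.16 (R 4.3.3, quasi-likelihood test, filterByExpr, genotype as the only term, all 9 libraries). Benjamini–Hochberg adjustment ran over the 17388 genes tested, with a threshold of 0.05. The method was tested on simulated data. Levels of different genes were compared by RPKM only. With 3 libraries per genotype and 4399733 to 7567492 gene reads per library, p-values weigh genotype differences against the spread estimated between these samples.

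The members and the gene lists were chosen with earlier results of these data known. The text names all 4 members, the genes of each list past the threshold and those with the lowest and highest fold change in each mutant, the 5 genes most like *KMD1*, and *VTC2* and *VTC3*. *ARR1*, *ARR10*, and *ARR12* and the genes that overlap a member were named after their values were seen. Sequences were read from TAIR10.1 with its RefSeq annotation by locus identifier, without conversion of coordinates, and coding sequences were aligned with Biopython 1.88.

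The alternatives were DESeq2 1.42.0, its size factors in edgeR, upper-quartile normalization, a replicate block, fits of the 2 compared genotypes alone, no filter or a minimum mean count of 10, exon reads, uniquely mapped reads, limma 3.58.1 on log2 RPKM with 0.1 or 1 added, an adjusted p under 0.01, and each library left out. A correction for the exon length trend in each library (lowess, span 0.3) was added after the data had been seen.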

Additional observations from a re-analysis of the deposited data

How the results depend on the processing

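The log2 fold changes of *KMD1*, *KMD2*, and *KMD4* kept their direction under every alternative run, except that *KMD2* in *vtc3-3* against *vtc2-4* turned to 0.0810 without *vtc2-4* replicate 1 (-0.71 to 0.08 over single libraries left out). *KMD4* in *vtc3-3* against the wild type passed the threshold with DESeq2 (0.92, adjusted p = 0.00183) and, in edgeR, without wild-type replicate 1 (0.77 to 1.06 over single libraries left out), and did not pass under the other alternatives. *KMD2* in *vtc3-3* could not be fitted with only the 2 genotypes compared, since it did not pass the filter there.

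The number of genes called moved more. In *vtc2-4* against the wild type it was 104, and 276 with DESeq2, 39 at an adjusted p under 0.01, 211 with the exon length trend removed, 34 with only the 2 genotypes compared, and 32 to 1066 with single libraries left out. In *vtc3-3* against the wild type it was 4, and 18 with DESeq2, 0 with only the 2 genotypes compared, and 1 to 120 with single libraries left out. In *vtc3-3* against *vtc2-4* it was 61, and 130 with DESeq2, 16 at an adjusted p under 0.01, 96 with the exon length trend removed, 1167 with only the 2 genotypes compared, and 8 to 1191 with single libraries left out. The highest count in each comparison under a left-out library came without wild-type replicate 1. Of the 5 genes nearest to *KMD1*, 2 stayed among the 5 nearest without wild-type replicate 1. The cause was not tested.

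Same-numbered replicates shared little of their deviations (correlations from -0.025 to 0.0897), which does not show whether they were grown or harvested together. A replicate block gave 70, 4, and 51 genes called in *vtc2-4* and *vtc3-3* against the wild type and in *vtc3-3* against *vtc2-4*. With this block *KMD4* in *vtc3-3* against the wild type had an edgeR adjusted p of 0.44. *KMD2* had only 4 to 33 reads per library, and *KMD3*, which lies inside AT2G44140, had none.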
